A study of Rattus norvegicus with 24 samples.

Results

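In rat neurospheres (NSps), 150 genes set the ascorbic acid groups apart by their transcript levels: 75 genes were higher and 75 genes were lower in both ascorbic acid groups than in every group without it. They were drawn from 16478 genes listed by Ensembl identifier, of which 7860 genes reached a group mean of 5 TPM, a unit that gives the share of a transcript among all transcripts after correction for its length, and 0 genes were in both lists. The members were chosen by measured values. For the upregulated list, the lower of the A and AGy means of log2(TPM + 1) had to exceed the highest of the other group means by the largest gap. The downregulated list was formed in the same way in the opposite direction. Upregulated and downregulated are names of these lists, not results of a test. The gap itself is therefore a description of how the genes were selected, and no test is given for it.

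NSps are free-floating clusters grown from neural progenitor cells, here taken from embryonic day 15 Sprague Dawley rat brain. They can hold stem cells, progenitors and cells already maturing towards neurons or glia. Ascorbic acid, or vitamin C, is a reducing agent that scavenges radicals. It also keeps the iron of a family of dioxygenases in its reduced state, among them the collagen hydroxylases, the hydroxylases that mark hypoxia-inducible factors for degradation, and the TET enzymes that oxidise methylated cytosine. Brain tissue is known for holding it at high levels. Noggin is a secreted antagonist of bone morphogenetic proteins.

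The series held 24 bulk RNA-seq samples in 6 groups of 4. The groups were control (C), Noggin at 5 uM (N), ascorbic acid at 200 uM (A), and the same 3 conditions with 1 Gy of radiation on day 3 after seeding (CGy, NGy and AGy). By the study's methods, Noggin and ascorbic acid were given before radiation and again after it. The control sample MO2 stood apart and was not used by the rule, so that C held 3 samples and 23 samples entered. The mean log2(TPM + 1) over the 7860 genes was 3.97 in MO2, against 4.62 to 4.81 in the other samples. The control sample MO4 also stood apart, at the level of the ascorbic acid samples in these genes, and results that rest on it are given with and without it. The labels number the samples. The 8 A and AGy samples, from number 26 on, all carry lower numbers than the N, CGy and NGy samples. The numbers are split within A and within AGy. In A, 1 sample carries 26, in AGy, 1 sample carries 32, and the remaining A and AGy samples carry far higher numbers. Which of the measured A and AGy samples carry 26 and 32 is not given in the sources used here. Of the controls, 1 sample carries the number 25 and the others carry numbers above those of A and AGy. What this number stands for is not given in the sources used here, and for N, CGy and NGy against A and AGy it cannot be told apart from ascorbic acid. The same holds for the controls other than the one numbered 25.

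The identifiers of the tables are not paired with gene names in the files, and 0 identifiers could be matched to the reference list. The members are therefore described as 2 upregulated and 2 downregulated identifiers and, beyond these, by their rank in each list. For the same reason, markers of cell types and named pathways were not analysed here by name, and the genes that the rule would leave out by name were not removed. In bulk samples, fewer cells of one type and less RNA per cell cannot be told apart.

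The gap that ranked the upregulated list was 1.27 on the log2(TPM + 1) scale for its first gene, had a median of 0.71 and was 0.51 for its last. The genes ranked 73 to 75 had gaps of 0.513, 0.512 and 0.512, and the genes ranked 76 to 78, just outside, had gaps of 0.509, 0.506 and 0.504. In the downregulated list, the gap was 0.955 for the first gene, with a median of 0.408. Its genes ranked 73 to 75 had gaps of 0.318, 0.318 and 0.315, against 0.315, 0.311 and 0.310 for those ranked 76 to 78. The lists thus end on a smooth slope, without a step at rank 75. Of the 7860 genes, 1410 genes had a gap above 0 in the upregulated direction and 1266 genes in the downregulated direction.

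**Figure D1:**
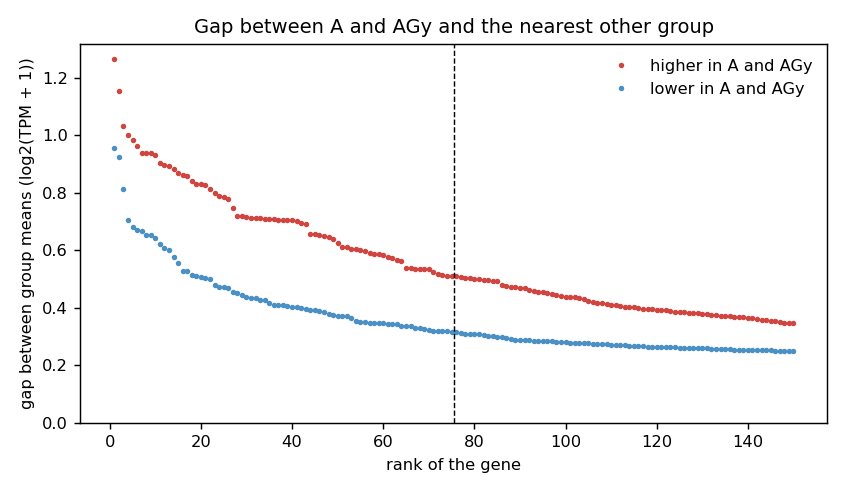
Gap between the A and AGy means and the nearest other group mean (y axis, log2(TPM + 1)) for the first genes of each ranking (x axis, rank), with the end of the lists at the dashed line. Red points, higher in A and AGy, start at 1.27 and pass the line at 0.51. Blue points, lower in A and AGy, start at 0.955 and pass it at 0.315.

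Most members were genes of modest level. The highest group mean of an upregulated gene had a median of 11.9 TPM and ranged from 5.07 to 698 TPM, with 30 genes under 10 TPM and 5 genes at 100 TPM or more. The downregulated genes had a median of 12.6 TPM and a range from 5.02 to 132 TPM. Over all 7860 genes the median was 26.3 TPM. The ratio of the mean TPM in A and AGy to that in the other groups had a median of 2.28 in the upregulated list and ranged from 1.61 to 4.23. In the downregulated list, the ratio of the other groups to A and AGy had a median of 1.90.

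The control group was most often the nearest of the other groups. It held the highest mean of the 4 groups without ascorbic acid for 63 of the 75 upregulated genes, against 8 genes for CGy, 3 genes for N and 1 gene for NGy. It held the lowest mean for 55 of the 75 downregulated genes, against 10 genes for NGy and 5 genes each for N and CGy. The sample values show where this nearness lay, as described next.

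The first upregulated gene, ENSRNOG00000003442, had 42.3, 26.1, 31.3 and 17.9 TPM in the A samples MO9 to MO12, and 23.7, 28.7, 26.1 and 15.4 TPM in the AGy samples MO21 to MO24. In the control samples MO1, MO3 and MO4 it had 8.37, 3.09 and 24.6 TPM. The third of these controls lay among the ascorbic acid samples and the other two lay below all of them. In N the values were 9.07, 13.6, 3.73 and 4.297 TPM, in CGy 11.9, 12.01, 1.99 and 2.38 TPM, and in NGy 7.25, 7.80, 1.75 and 2.17 TPM. No sample of N, CGy or NGy reached the lowest ascorbic acid sample. The group means were 29.4 ± 10.2 TPM in A and 23.5 ± 5.78 TPM in AGy (SD, n = 4), against 12.01 ± 11.2 TPM in C (SD, n = 3). MO2, which the rule did not use, had 6.36 TPM.

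The second upregulated gene, ENSRNOG00000019985, had 19.9, 13.3, 10.4 and 11.1 TPM in A and 16.1, 8.99, 7.70 and 7.02 TPM in AGy. The controls MO1, MO3 and MO4 had 3.25, 0.850 and 12.2 TPM, so that MO4 again lay within the ascorbic acid samples. N had 5.14, 3.81, 1.91 and 1.28 TPM, CGy had 3.19, 3.18, 0.199 and 0.265 TPM, and NGy had 2.04, 3.21, 0.918 and 0.747 TPM. Apart from MO4, the groups did not overlap. In both genes, 2 samples of CGy lay well above the other 2, and the same held for NGy.

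The first downregulated gene, ENSRNOG00000017146, had 1.04, 0.241, 1.39 and 2.13 TPM in A and 0.713, 1.41, 1.00 and 1.67 TPM in AGy. The controls MO1, MO3 and MO4 had 4.50, 4.68 and 1.37 TPM. N had 7.32, 4.55, 5.20 and 4.17 TPM, CGy had 1.49, 4.01, 3.18 and 5.84 TPM, and NGy had 2.90, 3.30, 7.19 and 5.74 TPM. MO4 and 1 sample of CGy lay within the range of the ascorbic acid samples, and all other samples that the rule used lay above it. MO2 had 0.344 TPM, also within that range. The group means were 1.199 ± 0.782 TPM in A and 1.199 ± 0.423 TPM in AGy, against 5.31 ± 1.40 TPM in N (SD, n = 4).

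The second downregulated gene, ENSRNOG00000020695, had 1.97, 4.53, 6.68 and 4.41 TPM in A and 3.67, 5.29, 3.76 and 3.26 TPM in AGy. The controls MO1, MO3 and MO4 had 11.3, 14.99 and 3.63 TPM. N had 6.65, 7.55, 9.77 and 15.2 TPM, CGy had 10.9, 4.95, 13.2 and 14.1 TPM, and NGy had 9.98, 9.47, 7.58 and 10.8 TPM. The groups overlapped in this gene: MO4, 1 sample of N and 1 sample of CGy fell within the range of the ascorbic acid samples. MO2 had 2.95 TPM, also within that range.

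**Figure D2:**
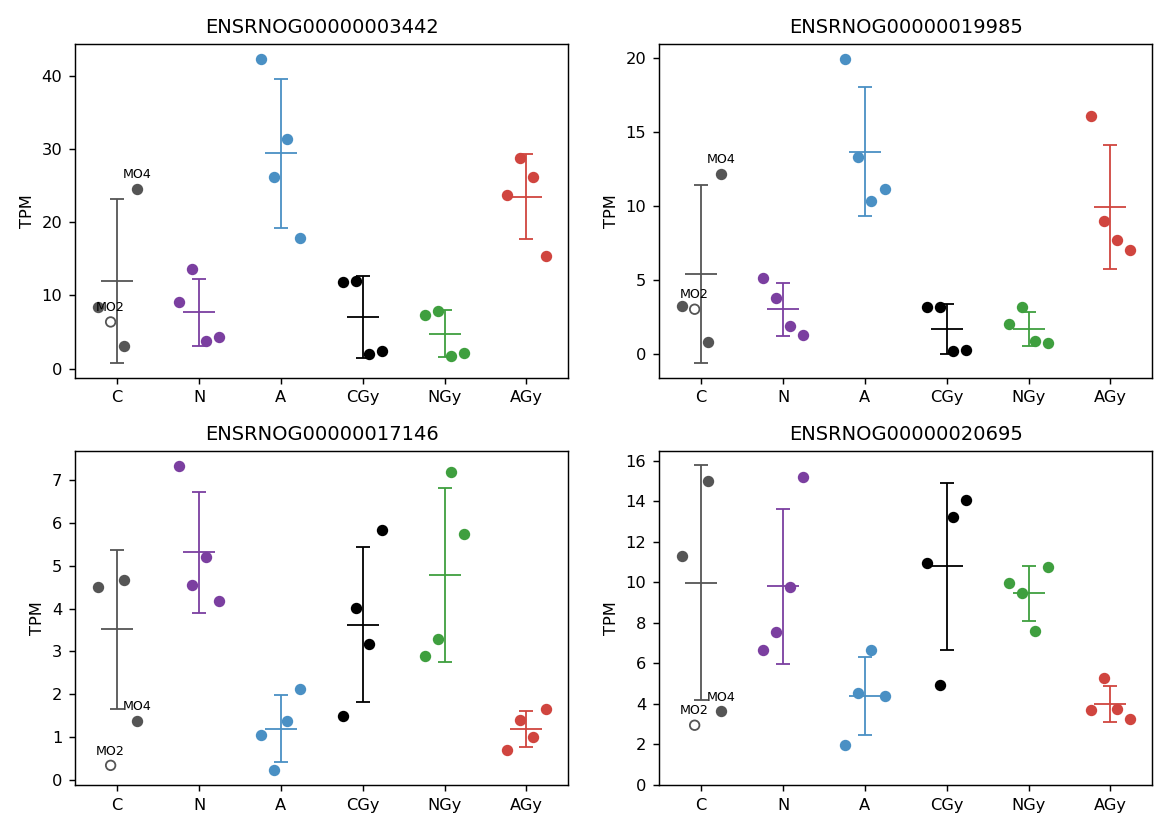
TPM (y axis) of the 2 first upregulated and the 2 first downregulated genes in every sample (points), by group (x axis), with the mean and SD of the samples the rule used and MO2 as an open circle. The A and AGy points of ENSRNOG00000003442 reach from 15.4 to 42.3 TPM, and of the other samples only MO4, with 24.6 TPM, lies in that range.

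Some members with other patterns are given by rank. The upregulated gene with the highest level, ranked 40, had 889.7, 632.8, 575.1 and 692.9 TPM in A and 776.2, 458.8, 460.9 and 697.2 TPM in AGy. MO4 had 728.2 TPM and the other samples of C, N, CGy and NGy used by the rule had 163.4 to 304.5 TPM. The downregulated gene ranked 6 was listed at 0 in all A samples, in 3 of the 4 AGy samples and in MO4. It had 0.904 TPM in the remaining AGy sample, and 0.286 to 8.36 TPM in the samples of N, CGy and NGy, with 7.26 and 8.36 TPM in MO7 and MO8. MO1 and MO3 had 1.114 and 2.095 TPM. The gene passed the filter of 5 TPM only through N, with a mean of 5.30 TPM. The means of C, CGy and NGy were 1.07, 1.21 and 2.06 TPM, near the floor.

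Over the 75 upregulated genes, the mean log2(TPM + 1) was 4.37, 4.04, 4.002 and 4.06 in the A samples and 4.20, 3.97, 3.85 and 3.995 in the AGy samples. The N samples had 3.15, 3.03, 2.595 and 2.55, the CGy samples 3.11, 3.04, 2.49 and 2.49, and the NGy samples 3.04, 2.97, 2.40 and 2.41. The controls MO1, MO3 and MO4 had 3.15, 2.61 and 3.89. MO4 thus lay at the level of AGy, and within N, CGy and NGy, 2 samples lay about as far above the other 2 in each group. What these pairs of samples share is not given in the sources used here. The genes held 0.402% to 0.524% of the listed TPM in A, 0.378% to 0.488% in AGy and 0.394% in MO4, against 0.115% to 0.233% in the other samples used by the rule.

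Over the 75 downregulated genes, the mean log2(TPM + 1) was 2.73, 2.86, 3.12 and 3.16 in A and 2.77, 3.22, 3.10 and 3.15 in AGy. The N samples had 3.83, 3.95, 4.07 and 4.07, and the NGy samples 3.77, 3.82, 4.02 and 4.06. In these 2 groups, the 2 samples that were higher in the upregulated list were the lower ones here. The CGy samples had 3.799, 3.91, 3.89 and 3.97, where the same pairs overlapped. MO1 and MO3 had 3.73 and 4.003, and MO4 had 3.02. The list divided the samples in the same way, with MO4 again on the side of the ascorbic acid samples. For the groups, this division follows from the rule, which chose the genes of both lists by their group means. Differences between samples in the mean over all 7860 genes, 4.62 in MO4 and 4.66 to 4.81 in the other samples used, were smaller than those between the list means.

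**Figure D3:**
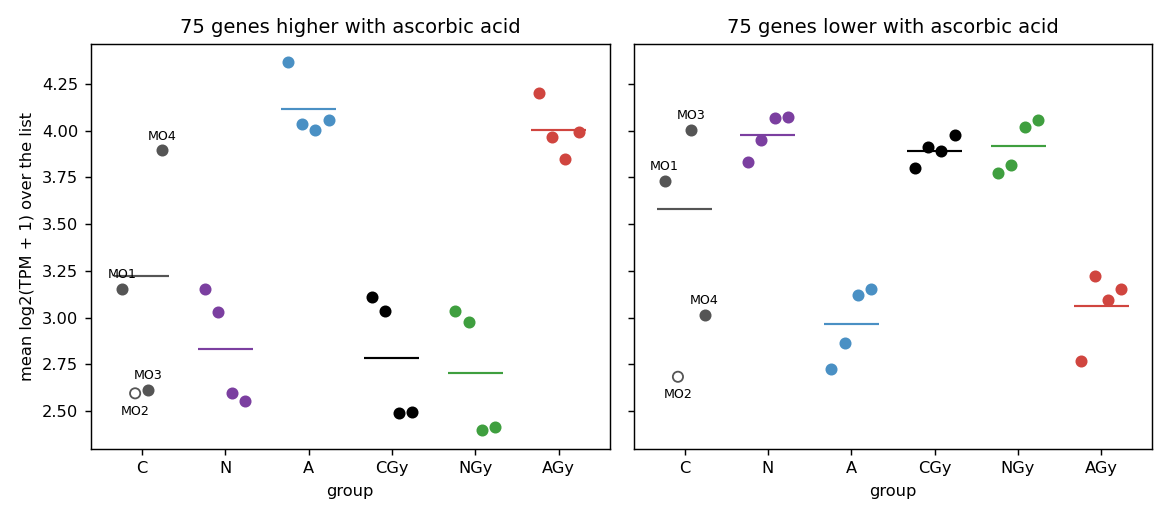
Mean log2(TPM + 1) over the 75 upregulated genes (left) and the 75 downregulated genes (right) in each sample (points), by group (x axis), with group means as lines and MO2 as an open circle. The controls MO1, MO3 and MO4 spread from 2.61 to 3.89 on the left and from 3.02 to 4.003 on the right, and MO4 lies at the height of A and AGy in both.

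The members varied more between samples of a group than genes did in general. The median SD of log2(TPM + 1) over the upregulated genes was 0.35 in N, 0.31 in CGy, 0.38 in NGy, 0.29 in A and 0.26 in AGy, against 0.11 to 0.15 over all 7860 genes in these groups. In C it was 0.63 in the upregulated genes and 0.50 in the downregulated genes, against 0.18 over all genes. Without MO4, the medians in C were 0.38 and 0.19. In the downregulated genes the medians in N, CGy and NGy were 0.18, 0.22 and 0.19, and in A and AGy 0.32 and 0.31. The median level of the members was below that of all genes, and the comparison was not matched for level.

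All 8 A and AGy samples lay above all 15 other samples for 21 of the 75 upregulated genes, and without MO4 this number was 59. The same held for 0.776% of all 7860 genes, and for 3.02% without MO4. All 8 samples lay below the others for 6 of the 75 downregulated genes and for 40 genes without MO4, against 0.305% and 2.98% of all genes. In the batch-corrected table the counts were 59 and 49 genes, against 2.74% and 2.34% of all genes. The rule used these values, and the counts describe its members only.

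Each sample was next placed on lists chosen without it. The other samples of its group still entered the rule, and these lists kept 40 to 75 of the 75 genes. The positions are therefore a description and not a test of the lists. The distance from the mean of the groups without ascorbic acid, at 0, to the mean of A and AGy, at 1, was taken for each of the 75 genes of either list, and the median over the genes was the position of the sample. On upregulated lists, the A samples had positions from 0.922 to 1.35 and the AGy samples from 0.687 to 1.02. N, CGy and NGy samples had positions from -0.421 to 0.202. Between these ranges lay MO1, with 0.296, whereas MO3 had -0.236. On downregulated lists, the A samples had positions from 0.697 to 1.28, the AGy samples from 0.644 to 1.14, MO1 had 0.136 and MO3 had -0.171.

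MO4 had a position of 0.968 on the upregulated list chosen without it and of 1.34 on the downregulated list, with 71 of 75 genes in each nearer to the ascorbic acid mean. On both lists, this control sample lay with or beyond the A and AGy samples. Its mean log2(TPM + 1) over all 7860 genes, 4.62, was also the lowest of the samples used. How far this general level moved its position on the downregulated list was not tested. Of the members of the lists as chosen with it, MO4 lay within the range of the A and AGy samples for 48 of the 75 upregulated and 59 of the 75 downregulated genes, against 63.3% of all 7860 genes. The upregulated count is thus close to the share over all genes. MO3 lay within that range for 1 and 4 members, against 60.4% of all genes, and MO1 for 5 and 9 members, against 70.1%. MO4 lay above all N, CGy and NGy samples for 59 of the 75 upregulated genes, against 16.9% of all genes, and below all of them for 55 of the 75 downregulated genes, against 35.0% of all genes. The rule used MO4 in choosing these lists, so the counts are a description. The files do not show which of the controls carries the number 25 in the labels.

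MO2 took no part in any list. It had a position of -0.272 on the upregulated list and of 1.45 on the downregulated list, so that the 2 lists placed it on opposite sides. It lay below all A and AGy samples for 34 of the 75 downregulated genes and for 65 of the 75 upregulated genes. The same held for 5369 of all 7860 genes.

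**Figure D4:**
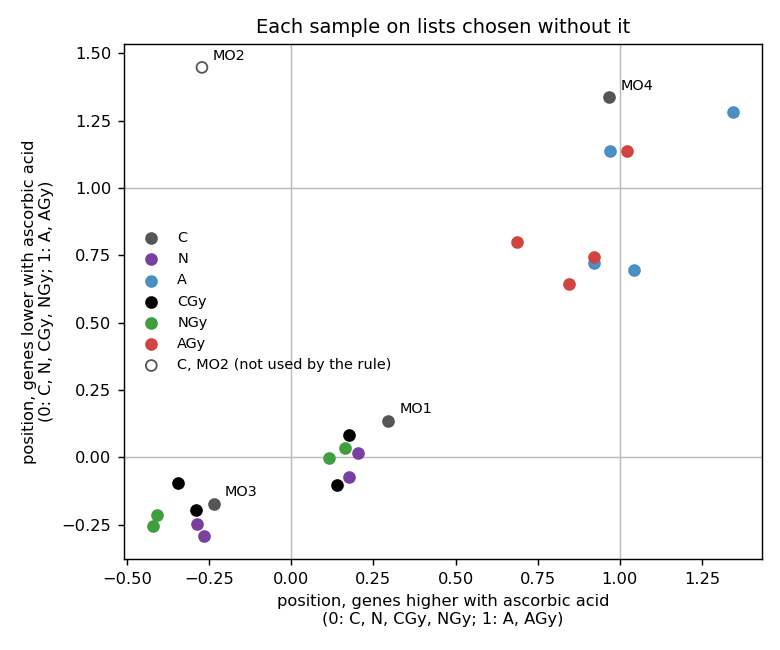
Position of each sample (points) on the upregulated list (x axis) and the downregulated list (y axis) chosen without it, where 0 is the mean of C, N, CGy and NGy and 1 is the mean of A and AGy. MO4 lies at 0.968, among the A and AGy samples, on the x axis and at 1.34, above all of them, on the y axis, and the open circle, MO2, lies at -0.272 and 1.45.

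The choice of genes depended on the control samples. Without MO3 the lists kept 55 upregulated and 42 downregulated genes. Chosen without MO4, from 7870 genes, the upregulated list kept 60 of its 75 genes and the downregulated list kept 40. The gap at rank 75 was then 0.708 and 0.588, and 1510 and 1826 genes had a gap above 0. All 75 genes of each list kept a gap above 0 without MO4, the smallest being 0.505 and 0.307. Their median gap rose from 0.706 to 0.869 and from 0.408 to 0.617. MO4 lay nearer to the ascorbic acid samples than MO1 and MO3, so leaving it out mostly widens a gap. That the gaps stayed above 0 is therefore a description and not a test of the members. C held the nearest mean for 34 upregulated and 43 downregulated genes of the lists chosen without MO4. On a scale from the mean of N, CGy and NGy at 0 to that of A and AGy at 1, the control mean lay at 0.321 for the upregulated members and at 0.095 without MO4. For the downregulated members these values were 0.394 and 0.055.

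The rule did not rank genes by the comparisons among the groups without ascorbic acid, or between A and AGy, but it used the means of all 6 groups. A gap is larger where A and AGy lie close together and where no other group lies near them, so the members were in part chosen on the values compared here. The counts of members called are therefore given as a description beside the share of all genes, and nothing is read from a low count. The comparisons were fitted with limma across all genes whose mean reached 1 TPM in 1 of the groups compared, and a gene was called at a Benjamini-Hochberg adjusted p-value of at most 0.05 and a change of at least 1.5-fold. The limma p-values measure the spread between these samples, which nothing in the labels describes as separate cultures.

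Radiation in the presence of ascorbic acid (AGy against A) called 0 of the 75 upregulated and 0 of the 74 downregulated genes tested, and 0% of the 9859 genes tested. In the batch-corrected table, 1 member was called, against 1.04% of all genes. At an unadjusted limma p under 0.05 stood 9 upregulated genes and 1 downregulated gene, against 12.7% of all genes. The median difference was -0.10 in the upregulated list, 0.09 in the downregulated list and -0.01 over all genes, on the log2(TPM + 1) scale. Of the upregulated genes, 53 of 75 were lower in AGy, and of all genes 52.2% were. The upregulated gene ranked 15 had 121.8, 132.4, 156.5 and 107.2 TPM in A and 278.2, 292.7, 317.4 and 210.0 TPM in AGy. The groups did not overlap, and with a difference of 1.08 (SE 0.16) its adjusted p-value by limma was 0.129, the smallest of the list. In CGy the same gene had 139.4 and 133.3 TPM in 2 samples and 34.8 and 36.1 TPM in the other 2.

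Radiation alone (CGy against C) called 0 of 75 genes in each list, against 0.0204% of all genes, and 5 upregulated and 6 downregulated genes had an unadjusted limma p under 0.05, against 14.6% of all genes. The median difference was -0.41 in the upregulated list and 0.27 in the downregulated list, against 0.05 over all genes. These differences rested on MO4: without it the medians were -0.05 and 0.03. With MO4, 67 of the 75 upregulated genes were lower in CGy. Without it, 43 of the 74 genes tested were lower.

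Noggin alone (N against C) likewise called 0 genes of either list by limma, against 0.0102% of all genes. At an unadjusted p under 0.05 stood 8 upregulated and 15 downregulated genes, against 12.1% of all genes. The medians were -0.33 in the upregulated list and 0.32 in the downregulated list, and without MO4 they were -0.03 and 0.06. Without MO4, 1 of 74 upregulated and 14 of 75 downregulated genes had an unadjusted limma p under 0.05, against 9.73% of all genes. Of the 75 downregulated genes, 49 were then higher in N, and of all genes 48.8% were. The comparison shares the control samples, and so MO4, with that of CGy and C. In the batch-corrected table deposited by the authors, in which the spread within groups is smaller, 31 of 150 members were called for Noggin alone, against 3.88% of all genes, and 33 of 150 members for radiation alone, against 6.73%. Of these, 12 and 17 were upregulated members with means below those of C, and 19 and 16 were downregulated members with means above. MO4 was among the controls in these fits, and they were not repeated without it. How far these calls rest on MO4 was therefore not tested.

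Radiation in the presence of Noggin (NGy against N) called 2 genes, both of the downregulated list and both lower in NGy, among 149 genes tested, against 2.91% of all genes. At an unadjusted limma p under 0.05 stood 6 upregulated and 21 downregulated genes, against 33.2% of all genes. The called gene ranked 22 had 63.5, 73.8, 73.7 and 85.3 TPM in N and 44.9, 55.6, 44.4 and 47.0 TPM in NGy, without overlap. The difference was -0.61 on the log2(TPM + 1) scale (SE 0.11, adjusted p-value by limma 0.0145). The called gene ranked 71 had 24.2, 28.2, 23.4 and 28.6 TPM in N and 17.1, 19.6, 8.72 and 9.21 TPM in NGy. Its difference was -0.96 (SE 0.25, adjusted p-value by limma 0.0405). Neither gene passed when all 6 groups shared 1 fit. Without MO8 or without MO19, 0 members were called, and without MO6, MO7 or MO20, 1 member was called. In the batch-corrected table, 9 members were called, against 4.72% of all genes.

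Noggin in irradiated NSps (NGy against CGy) called 0 genes of either list by limma, against 0.392% of all genes. At an unadjusted p under 0.05 stood 7 upregulated and 10 downregulated genes, against 17.8% of all genes. In the batch-corrected table, 4 members were called, against 1.42%. The median difference was -0.10 in the upregulated list and 0.02 in the downregulated list.

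The interaction of radiation and ascorbic acid, the AGy minus A difference less the CGy minus C difference, was fitted as well, and all 4 of its group means entered the rule. By limma, 0 members passed at an adjusted p-value of at most 0.05, against 0.00996% of all genes, and 2 upregulated genes and 1 downregulated gene had an unadjusted p under 0.05, against 7.51%. The median was 0.31 in the upregulated list and -0.19 in the downregulated list. Without MO4 the medians were -0.05 and 0.05, with the opposite sign. In the batch-corrected table, 17 of 150 members passed, against 11.2% of all genes. These were 4 upregulated genes (5.33%), all with a positive interaction, and 13 downregulated genes (17.3%), all with a negative one. Of the 1126 genes that passed among all genes, 812 were negative. MO4 was in this fit, which was not repeated without it.

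**Figure D5:**
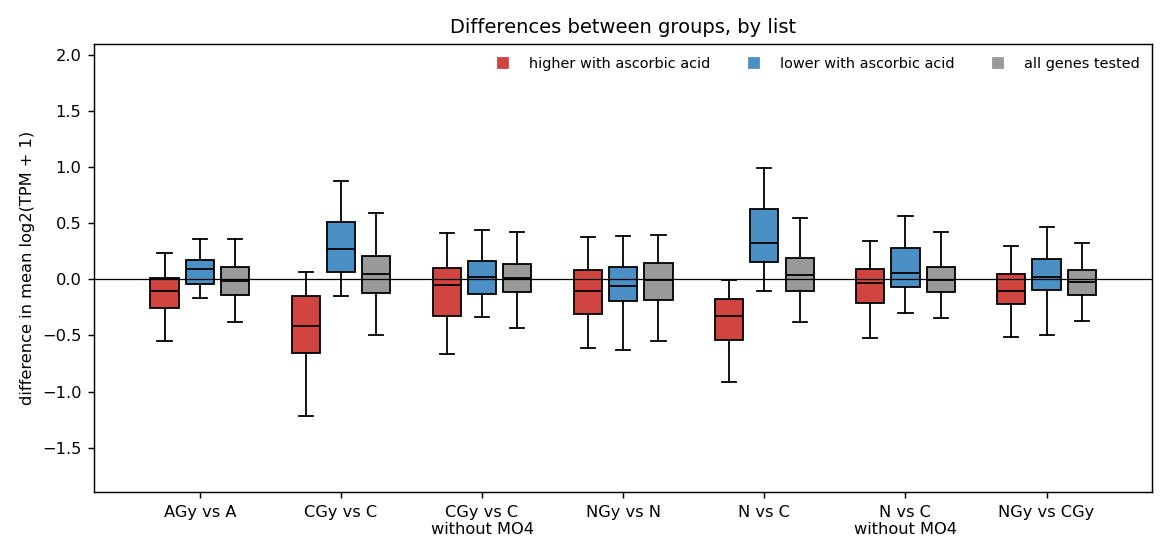
Difference in mean log2(TPM + 1) (y axis) between groups, for the upregulated genes (red), the downregulated genes (blue) and all genes tested (grey). Boxes span the quartiles with the median as a line, and whiskers reach the 5th and 95th percentiles. The red and blue medians of CGy against C, -0.41 and 0.27, move to -0.05 and 0.03 without MO4.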

How the data were processed

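Bulk RNA-seq was measured in 24 NSp samples. The authors estimated TPM with kallisto, and the labels also name STAR 2.6.1, with the rat build Rn7 in the study's methods. The deposited TPM table listed 16478 genes and 605633 to 655289 TPM per sample. A second deposited table, batch-corrected by the authors with NOISeq and without MO2, holds a score equal to 0.5 times the corrected TPM + 1. Since TPM hold no counts of reads, depth is unknown and only the spread between samples shows the precision.

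Columns were matched to groups by the study's sample identifiers and not to single samples of the labels. Uncorrected TPM were used as log2(TPM + 1), because the correction used the group labels and reduces the spread within groups. Pairs of groups were compared with limma 3.58.1 in R 4.3.3, each pair fitted on its own samples and the interaction on its 4 groups, for genes whose mean reached 1 TPM in 1 of the groups compared. log2 differences have a pseudocount of 1 TPM. Tables and figures were made with Python 3.11.15 and matplotlib 3.10.9. The test was checked on simulated data with independent noise in each gene and sample. That check does not cover the split of samples within N, CGy and NGy. The alternatives tried were the corrected table, MO2 included, a pseudocount of 0.1, other filters on low values, quantile normalization, all 6 groups in 1 fit and each sample left out. The genes named are the 2 first of each list, since identifiers could not be paired with names, and members given by rank were picked after their values were seen. The members and lists were chosen with earlier results of these data known.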

Additional observations from a re-analysis of the deposited data

Results flagged for a closer look

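In the A group, the mean log2(TPM + 1) over the upregulated genes was 4.37 in MO9 and 4.002 to 4.06 in the other 3 samples. The gap from MO9 to the nearest sample was 0.8431 of the range of the group, above Dixon's 95% critical value for 4 samples. This was 1 of 48 groups of values checked, of which chance flags about 1 in 20. MO9 also had the highest value of the group in both upregulated genes named above, and the lowest mean over the downregulated genes, 2.73. In AGy, MO21 likewise had the highest mean over the upregulated genes, 4.20, and the lowest over the downregulated genes, 2.77. Its gaps were 0.5788 and 0.7245 of the range of the group, and it was not flagged. What sets these samples apart was not tested.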

How the results depend on the processing

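Of 63 alternatives apart from leaving out samples, 46 gave counts within 1.5 times those reported and 17 did not. Some of the 46 could hardly differ. The batch-corrected table keeps the group means that the rule uses, so both lists stayed the same there. Other counts were 0 in both settings, where few or no genes of all were called. The tally is therefore not a measure of robustness. In the batch-corrected table, members called were 1 in AGy against A, 33 in CGy against C, 9 in NGy against N, 31 in N against C, 4 in NGy against CGy and 17 in the interaction, and members without overlap were 59 upregulated and 49 downregulated. The spread within groups is smaller there by construction, and more of all genes were called. In the same order, the shares of all genes were 1.04%, 6.73%, 4.72%, 3.88%, 1.42% and 11.2%. The counts without overlap stood against 2.74% and 2.34% of all genes. For NGy against N, a pseudocount of 0.1 and no filter each gave 1 call and all 6 groups in 1 fit gave 0, whereas that fit gave 1 call in N against C. With a minimum of 10 TPM, the lists kept 45 upregulated and 43 downregulated genes. With MO2 included, 39 downregulated genes were kept and 2 had no overlap, and quantile normalization left 9 upregulated genes without overlap. Apart from what follows from the construction of these settings, the cause was not tested. Over the samples left out in turn, the downregulated list kept 40 to 73 genes and the upregulated list 55 to 75, members without overlap numbered 6 to 40 and 21 to 59, and calls in NGy against N numbered 0 to 3. No paired or blocked analysis was run, because the columns carry no replicate numbers shared between groups. The study's methods mention potential batch effects, but the sources used here do not name the batches. The split of N, CGy and NGy into 2 and 2 samples, described above, thus stayed in the spread that the limma fits on uncorrected TPM used. TPM keep no depth, so genes near 5 TPM carry an unknown counting error.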
